A study of Homo sapiens with 9 samples.

Results

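The replication-dependent histone genes encode the histones that package newly copied DNA, and their mRNAs were followed in DU145 cells with and without *FZD6* knockdown. The genes were chosen by symbol alone, as H1-1 to H1-6 and every gene named H2AC, H2BC, H3C or H4C with a number. This gave 69 genes, 6 for the linker histone H1, 17 for H2A, 18 for H2B, 13 for H3 and 15 for H4. Of these, 68 are listed in the deposited tables, which cover 27898 genes with a matched RefSeq accession. DU145 is an established human prostate cancer line. RNA-seq was performed on 9 libraries: 3 from control cells with a scrambled shRNA (wild-type genotype in the labels), 3 from cells with shRNA1 against *FZD6* and 3 from cells with shRNA2 against *FZD6*. All 9 libraries are of the same line and each group expressed a hairpin, so the control cells also carry one. The methods describe lentiviral vectors for constitutive and for doxycycline-inducible hairpins. Which of them was used for these libraries, how long the hairpins were expressed and whether the 3 libraries of a group came from separate cultures is not given in the sources used here, so the p-values measure the spread between these libraries, which may be technical.

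Most mRNAs end in a poly(A) tail. The mRNAs of the replication-dependent histones mostly do not. Their 3′ end is made by a cut just after a short stem-loop, which is bound by the protein SLBP, and the cut is guided by the U7 small nuclear RNP. The genes lie in clusters, have no introns as a rule, are transcribed with the help of NPAT in S phase, and their mRNAs are degraded when DNA synthesis stops. Some of these genes also give longer, polyadenylated transcripts that run past the stem-loop, in particular in cells that leave the cell cycle. Replacement histones such as H2AX, H2AZ1 and H3-3A are made throughout the cell cycle, most of them from ordinary polyadenylated mRNAs, whereas H2AX has both forms. The authors prepared their libraries with a stranded mRNA kit that selects poly(A) RNA, so the values below describe the histone RNA that came through this selection, and not all histone mRNA of the cells.

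The stem-loop was searched on the sense strand of the GENCODE v29 transcripts as 16 letters, GG, any 2 bases, CTT, any base, T, any base, AG, any 2 bases and CC. Of 68 histone genes with a matched transcript, 33 have a 3′ untranslated region in the model, and 30 of those 33 (90.9%) hold the stem-loop. It is found in 0.323% of the 60121 protein-coding transcripts with a 3′ untranslated region. The models of the other 35 genes, H1-2 and H2BC12 among them, hold coding sequence only and cannot be searched. The stem-loop and the bases beside it are shown for the 7 histone genes called in a comparison further on and for H2AC18 and H2BC5, abundant genes whose models hold it, 5′ to 3′ and as DNA letters, with the 16 bases of the stem-loop in capitals.
H2AC18: ctcaaaaGGCTCTTTTCAGAGCCaccca
H2AC6: acccaaaGGCTCTTTTCAGAGCCcccct
H2AC25: acataaaGGCTCTTTTCAGAGCCaccta
H2AC11: aaccaacGGCTCTTTTCAGGGCCaccca
H2BC21: ctccaaaGGCTCTTTTCAGAGCCaccca
H2BC6: acccaaaGGCTCTTTTCAGAGCCa
H2BC5: tcccaaaGGCTCTTTTAAGAGCCacgca
H4C15: tcccaaaGGCCCTTTTTAGGGCCgacca
H4C8: aaccaaaGGCCCTTTTCAGGGCCgccca
The form shown for H2AC18, H2AC6, H2AC25, H2BC21 and H2BC6, whose model ends 1 base after it, is the commonest, in 17 of the 30 genes. The form of H4C8 is in 5, that of H2BC5 in 4, that of H4C15 in 2 and that of H2AC11 in 1 gene. In the human build GRCh38 the capitals lie at chr1:149842223-149842238 on the minus strand for H2AC18, chr6:26124669-26124684 on the plus strand for H2AC6, chr1:228457369-228457384 on the minus strand for H2AC25, and chr6:27133515-27133530 on the plus strand for H2AC11. They lie at chr1:149886188-149886203 on the minus strand for H2BC21, chr6:26184210-26184225 on the plus strand for H2BC6, chr6:26158587-26158602 on the plus strand for H2BC5, chr1:149860769-149860784 on the minus strand for H4C15 and chr6:26285131-26285146 on the minus strand for H4C8. All 9 are in the 3′ untranslated region of their gene.

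The deposited entries end at different distances from this element. For 27 of the 30 genes the entry ends within 10 bases of the stem-loop, so its FPKM are computed over the length of the stem-loop form. Longer transcripts of the same gene share that sequence, so these values cannot tell the forms apart. The entry of H2BC21 runs on for 1728 bases after it. The GENCODE models of the 30 genes are often longer than the entries: 21 have more than 50 bases after the stem-loop, and 14 have the poly(A) signal letters AATAAA within their last 50 bases, those of H2AC18, H2AC6, H2AC11, H2BC21, H2BC5 and H4C15 among them. H2BC5 is listed as a stem-loop form and as a longer form made of 2 exons, whose model has AATAAA and no stem-loop. In control libraries 1, 2 and 3 the stem-loop form of H2BC5 had 13.8, 14.1 and 15.5 FPKM and the longer form 10.8, 13.1 and 11.7 FPKM. The 2 entries share sequence, so these values depend on how shared reads were divided between them.

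The promoters, read from 250 bases before to 50 after each start in RefSeq (GRCh38.p14), differ by histone type. The octamer ATTTGCAT, searched on both strands, is present in 14 of 18 H2B genes and 11 of 16 H2A genes, in 1 of 11 H3 genes and in no H1 or H4 gene, and in 2.19% of all 27305 promoters. Some H2A and H2B genes lie head to head, such as H2AC20 and H2BC21, so their windows overlap and the same octamer can count for both types. The octamer is the binding sequence of the POU family factor OCT1, a known regulator of H2B transcription. The windows of the most abundant H2B gene and of the H2B genes called by a test are shown with the octamer in capitals.
H2BC12: ctcttcaccttATTTGCATgagaggtccta
H2BC21: tcggagccctaATTTGCATaaggtggttat
H2BC6: taagctccttcATTTGCATgcagacttcac
They lie at chr6:27146886-27146915 (minus strand), chr1:149886710-149886739 (minus strand) and chr6:26183642-26183671 (plus strand). The letters CCAAT are in all 18 H2B, 16 H2A, 11 H3 and 6 H1 promoters read, in 3 of 13 H4 promoters and in 39.7% of all promoters. TATAAA is in 43 of 64 histone promoters and in 13.99% of all.

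Expression was measured as FPKM, the fragments of a transcript scaled by its length and by the mapped fragments of the library, and was summed over the entries of a gene. From the confidence bounds beside the FPKM, 32.2 to 40.2 M fragments per library were estimated. *FZD6* had 20.5 ± 0.441 FPKM (SD, n = 3) in control cells, 9.83 ± 0.376 with shRNA1 and 8.11 ± 0.598 with shRNA2, and all 6 knockdown libraries were below all 3 control libraries (two-sided exact permutation test over 84 arrangements, p = 0.0119, the smallest that this design allows). The epithelial markers KRT8, KRT18, KRT19, EPCAM and CDH1 were present at 3.38 to 296 FPKM, and the blood, endothelial and fibroblast markers were at 0.455 FPKM or less.

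A few genes made up most of the histone signal (shown in the plot of levels by gene and library). The 68 genes together had 1015 ± 24.1 FPKM (SD, n = 3) in control cells, and over the 9 libraries they held 0.129% to 0.145% of all FPKM. H1-2, a linker histone, and H2BC12, an H2B gene of the chromosome 6 cluster, contributed 53.6% to 56.2% of the histone sum. H2BC12 is listed as 2 overlapping entries. The one that spans chr6:27138293-27146858 had 271 to 314 FPKM, and the compact one at chr6:27146361-27146855 had 0.866 FPKM at most. This division depends on how shared reads were assigned. Over the 9 libraries, 37 genes averaged 1 FPKM or more, 13 averaged 10 or more and 3 averaged 100 or more. Another 24 genes were above 0 with a mean under 1 FPKM, and 7 genes (H1-1, H2AC1, H2BC1, H4C5, H4C6, H4C7 and H4C13) were listed at 0 in every library. H1-1, H2AC1 and H2BC1 are known as tissue-restricted histone genes, the latter 2 from testis. H4C14 is not listed under an accession of its own. The highest single value among the genes with a mean under 1 FPKM was 1.64 FPKM.

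**Figure D1:**
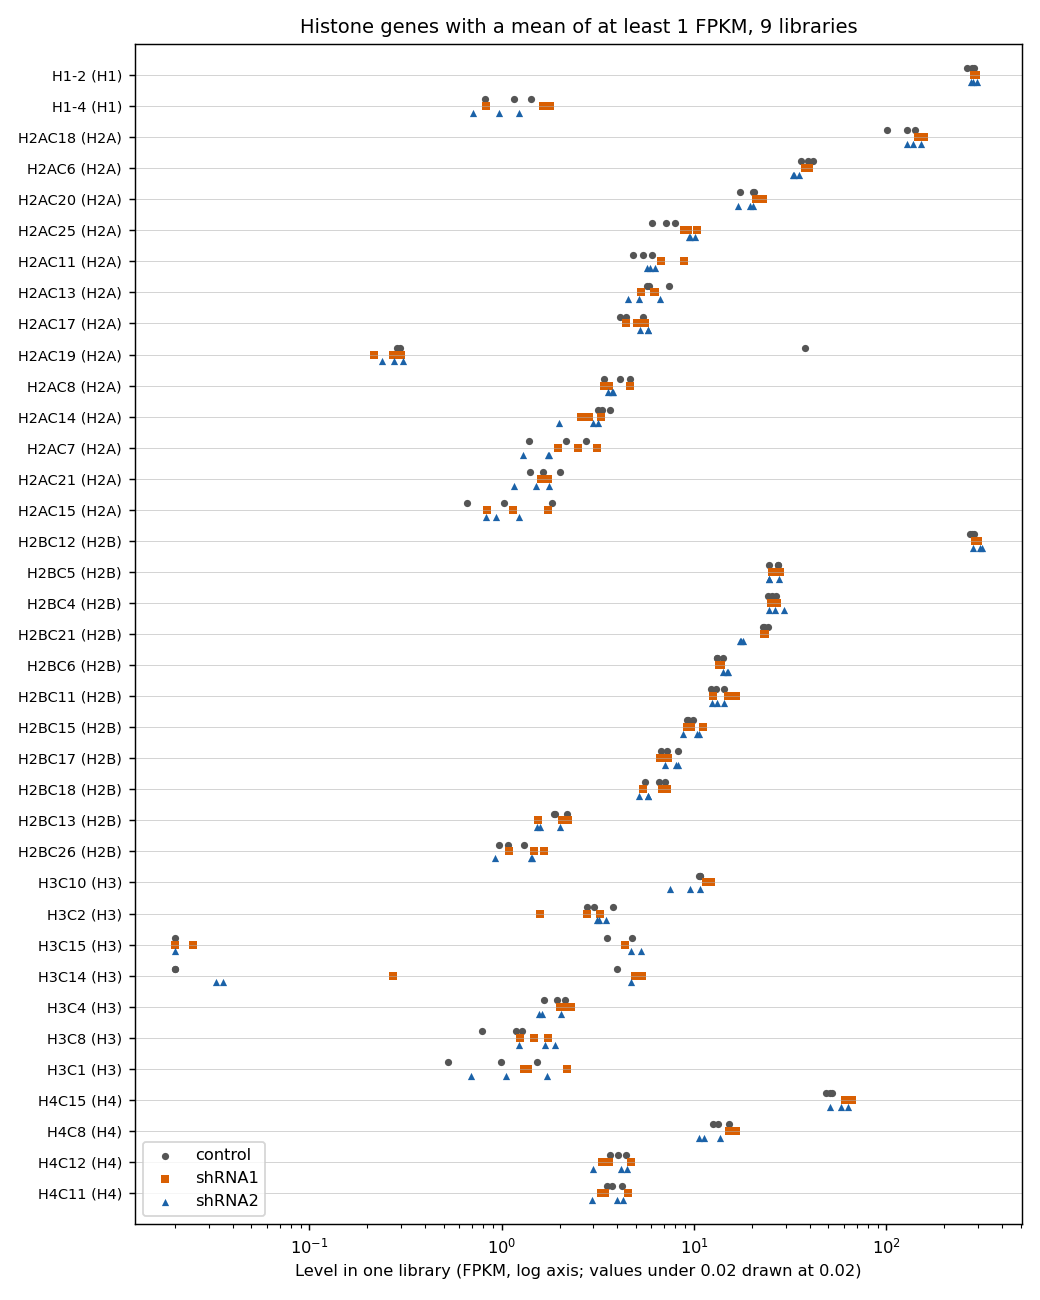
Level of the 37 histone genes that averaged 1 FPKM or more, on a log axis, 1 point per library, with circles for control, squares for shRNA1 and triangles for shRNA2, sorted by type and mean. H2BC12, H1-2 and H2AC18 lie above 100 FPKM, most other genes between 1 and 30 FPKM, and the points of the 3 groups overlap for most genes.

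Each type was dominated by 1 gene to a different extent. H1-2 had 99.4% of the H1 signal, H4C15 71.1% of H4, H2BC12 69.3% of H2B, H2AC18 57.7% of H2A and H3C10 44.8% of H3. The H2AC18 level sums its entries at the H2AC18 and H2AC19 loci, which had nearly equal FPKM. Like that of H4C15, it cannot be assigned to either copy. In control libraries 1, 2 and 3, H1-2 had 285, 264 and 278 FPKM, H2BC12 had 287, 279 and 271 FPKM, and H2AC18 had 100.4, 128 and 141 FPKM. H3 genes were low throughout, although a nucleosome holds as many H3 as H2A molecules. The H3 sum in control cells was 22.8 ± 0.59 FPKM (SD, n = 3), against 277 ± 10.4 for H1, 232 ± 9.58 for H2A, 409 ± 7.93 for H2B and 74.1 ± 0.572 for H4. By location, the 55 genes of the chromosome 6 cluster (6p22) gave 73.5% to 76.2% of the sum, the 10 listed genes at 1q21 gave 22.7% to 25.4%, and the pair at 1q42 gave 0.673% to 1.09%. H4C16, the member on chromosome 12, reached 0.374 FPKM at most.

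The first comparison asks whether the total histone signal differed with *FZD6* knockdown, and the sums are given without a test because they are scores over chosen genes. The summed level of all 68 genes was 1039, 991 and 1015 FPKM in the control libraries, 1093, 1073 and 1107 with shRNA1, and 1053, 995 and 1087 with shRNA2. The shRNA1 libraries lay above all control libraries, whereas those of shRNA2 overlapped them. The mean was 1.07 times that of control with shRNA1 and 1.03 times with shRNA2. Without H1-2 and H2BC12 the ratios were 1.10 and 0.996. In a bulk sample, a change in the number of cells in S phase and a change in histone RNA per cell cannot be told apart.

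The types did not move to the same extent. With shRNA1 the ratio to control was 1.06 for H1, 1.10 for H2A, 1.05 for H2B, 1.11 for H3 and 1.21 for H4. With shRNA2 it was 1.03 for H1, 0.992 for H2A, 1.04 for H2B, 1.00 for H3 and 1.06 for H4. The H4 sum was 73.9, 73.6 and 74.7 FPKM in control cells, 87.0, 89.4 and 92.2 with shRNA1, and 82.2, 70.0 and 84.3 with shRNA2. All shRNA1 libraries were above the control range, and 1 shRNA2 library, replicate 2, was below it while the other 2 were above. The H3 sum was 22.5, 22.4 and 23.5 FPKM in control cells, 25.5, 25.2 and 25.1 with shRNA1, and 22.1, 22.5 and 24.0 with shRNA2. The H2A sum with shRNA1 (248 to 260 FPKM) was above control (221 to 240 FPKM), and that with shRNA2 (218 to 244 FPKM) overlapped it.

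**Figure D2:**
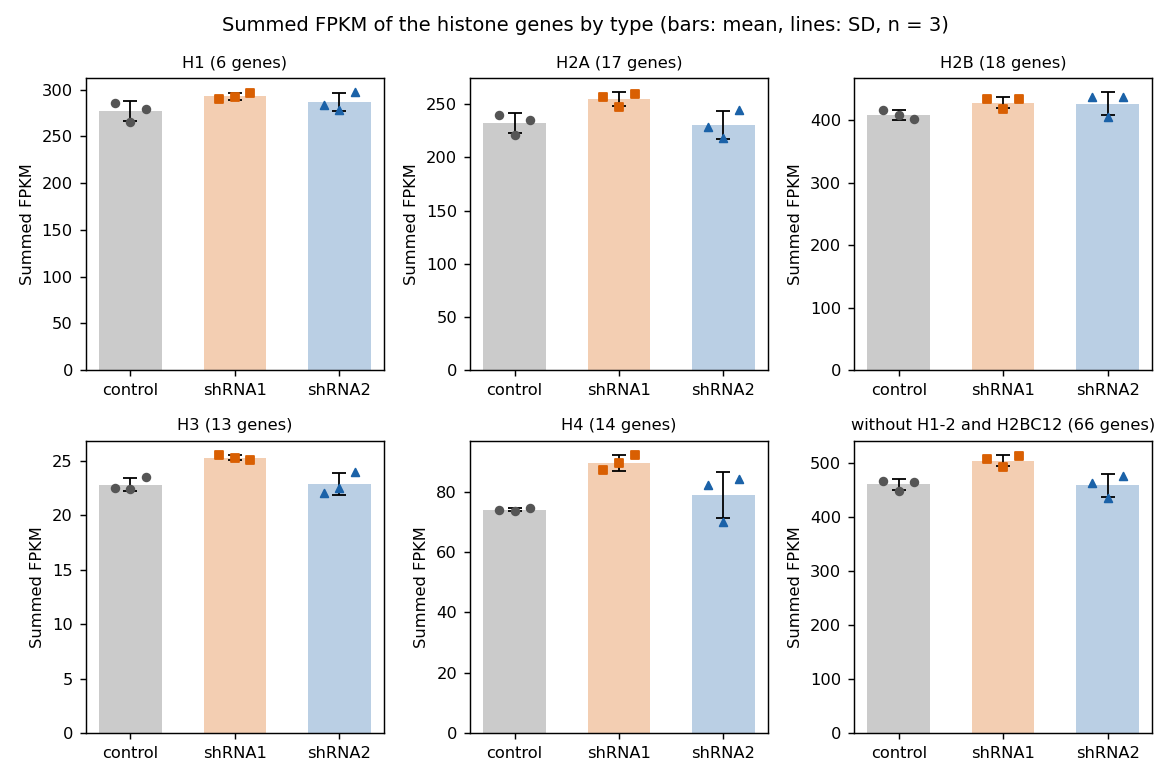
Summed FPKM by histone type in each library, with bars for the mean and lines for the SD (n = 3). The vertical axes start at 0. The shRNA1 libraries lie above the control libraries for each of the 6 sums, most clearly for H4 (87.0 to 92.2 against 73.6 to 74.7 FPKM), and the shRNA2 libraries overlap the control range or spread to both sides of it.

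Within a type, the clusters differed. The 2 H2B genes at 1q21, H2BC21 and H2BC18, summed to 28.5 to 31.5 FPKM in control cells, 28.8 to 30.3 with shRNA1 and 22.7 to 23.9 with shRNA2, a ratio of 0.778 for shRNA2. The 15 H2B genes at 6p22 had a ratio of 1.06 for shRNA2. The 12 H2A genes at 6p22 summed to 64.5 to 73.5 FPKM in control cells, 68.8 to 70.3 with shRNA1 and 59.99 to 62.3 with shRNA2. Here too only shRNA2 lay outside the control range. The pair at 1q42, H2AC25 and H2BC26, had 6.99, 9.23 and 8.21 FPKM in control cells, 10.5, 10.8 and 11.4 with shRNA1, and 10.96, 10.81 and 11.02 with shRNA2, 1.34 times control with either hairpin. It was the one cluster whose knockdown libraries all lay above its control libraries.

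The second comparison asks which single genes differed. It was made by limma on log2(FPKM + 1) over the 12507 genes that averaged 1 FPKM or more, with p-values adjusted by Benjamini-Hochberg and 0.05 as the threshold. Fold changes are on this scale and understate the change of low genes. All 37 histone genes that reached 1 FPKM were tested. In knockdown against control (6 against 3 libraries), H2AC25 and H4C15 were higher and no histone gene was lower. Over all genes tested, 20.6% were called, 13.5% higher and 7.09% lower, so the 2 of 37 histone genes (5.41%) are fewer than that background. At an unadjusted p under 0.05 there were 5 histone genes, all higher. The share of all genes at an unadjusted p was not counted, so such counts, here and below, have no background to be weighed against. Log2 fold changes were positive for 19 and negative for 18 of the 37, with a median of 0.0049, beside 0.027 over all genes tested. The libraries of knockdown and control did not overlap for 1 histone gene, H2AC25, which was higher, against 25.9% of all genes, 16.4% higher and 9.46% lower. The criteria in the study's methods (p under 0.01 without adjustment, and at least 1.2-fold) were met by 1 histone gene, beside 2.89% of all genes.

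Each hairpin was then compared with control on its own. The 2 comparisons share the 3 control libraries. With shRNA1, H2AC25, H2AC11 and H4C15 were higher and none was lower (3 of 37, beside 18.8% of all genes called, 11.6% of all genes higher and 7.19% lower). All 4 histone genes at an unadjusted p under 0.05 were higher. The shRNA1 and control libraries did not overlap for 8 of the 37, all higher, beside 46.8% of all genes (28.9% higher and 17.9% lower). With shRNA2, H2AC25 and H2BC6 were higher and H2BC21 and H2AC6 lower (4 of 37, beside 26.7% of all genes called, 15.3% higher and 11.4% lower). At an unadjusted p under 0.05 there were 7 with shRNA2, 5 higher and 2 lower. The shRNA2 and control libraries did not overlap for 2 genes that were higher and 2 that were lower, beside 40.6% of all genes (24.0% and 16.6%). The median log2 fold change of the 37 genes was 0.067 with shRNA1 and −0.033 with shRNA2. Between the hairpins, H2BC21 and H4C8 were lower with shRNA2 than with shRNA1 (2 of 37, beside 6.70% of all genes called, 4.79% lower and 1.91% higher). None was called higher. At an unadjusted p under 0.05 there were 8 lower and 1 higher, counts without a share over all genes beside them. The libraries of the hairpins did not overlap for 7 genes that were lower with shRNA2 and 1 that was higher, beside 26.4% of all genes (14.5% and 11.8%), and 27 of the 37 had a negative log2 fold change, with a median of −0.11. In that comparison the median over all genes was near 0.

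**Figure D3:**
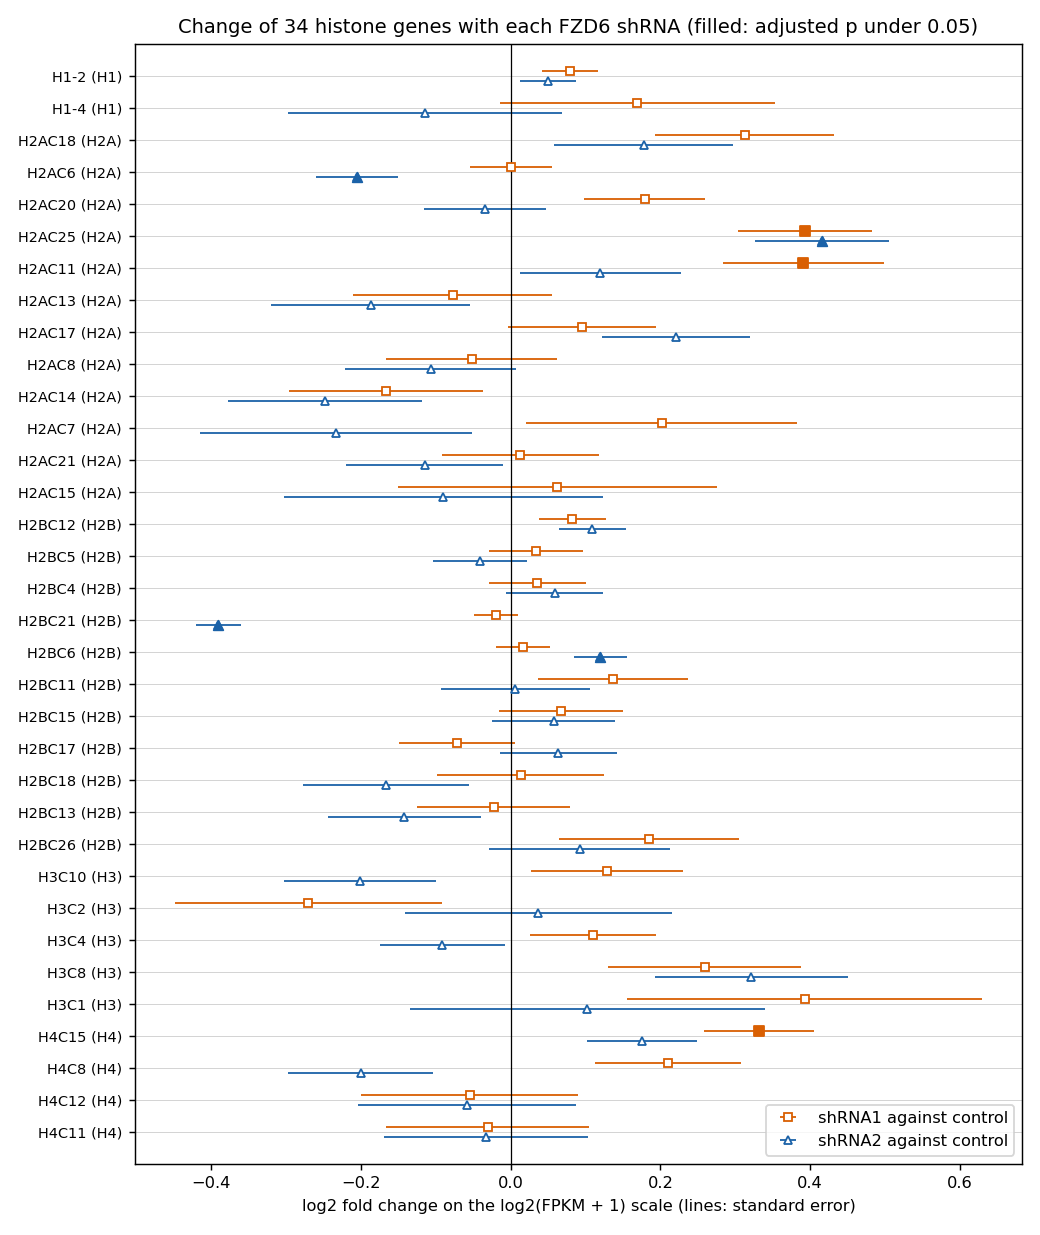
Log2 fold change on the log2(FPKM + 1) scale of 34 histone genes with shRNA1 (squares) and shRNA2 (triangles) against control, with standard errors, and filled symbols where the adjusted p was under 0.05. H2AC19, H3C14 and H3C15 are left out because their reads were assigned differently between libraries. H2AC18, the partner of H2AC19, is kept, although its change depends on the same assignment. H2AC25 is filled for both hairpins (0.39 and 0.42), H2BC21 for shRNA2 alone (−0.39), and most other genes lie within 0.3 of 0.

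H2AC25 encodes an H2A at 1q42 (chr1:228457364-228457873) and was the histone gene higher with both hairpins. It had 6.03, 7.93 and 7.13 FPKM in control libraries, 8.86, 9.34 and 10.3 with shRNA1, and 9.52, 9.39 and 10.1 with shRNA2. Every knockdown library was above every control library. By limma the knockdown libraries gave a log2 fold change of 0.40 with a standard error of 0.073, the error given after ± from here on (adjusted p = 0.00824). It was 0.39 ± 0.089 (adjusted p = 0.0239) with shRNA1 and 0.42 ± 0.089 (adjusted p = 0.0136) with shRNA2. The call with shRNA1 was lost without control replicate 3, shRNA1 replicate 2 or shRNA1 replicate 3 (adjusted p from 0.0565 to 0.0803) and with the trend in transcript length removed (0.27, adjusted p = 0.0910). The difference between the hairpins was 0.023 ± 0.089 (adjusted p = 0.918). Its stem-loop is of the commonest form, and its neighbour H2BC26 had 0.964, 1.299 and 1.08 FPKM in control cells and 0.927 to 1.66 FPKM in knockdown cells, which overlapped.

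H4C15 was the most abundant H4 gene. Its accession is listed at the locus of H4C15 and at that of H4C14, both at 1q21, with nearly equal FPKM, so that the sum stands for reads that cannot be assigned to either copy. The sum was 50.97, 48.7 and 52.4 FPKM in control cells, 61.1, 64.9 and 66.2 with shRNA1, and 58.3, 51.2 and 63.0 with shRNA2. The shRNA1 libraries were above control (log2 fold change 0.33 ± 0.073, adjusted p = 0.0219 by limma), whereas shRNA2 replicate 2 was within the control range (0.18 ± 0.073, adjusted p = 0.117). Without that library the shRNA2 difference passed (0.25, adjusted p = 0.0131). Over both hairpins the change was 0.25 ± 0.076 (adjusted p = 0.0460). This last call was lost when any library but shRNA2 replicate 2 was left out (adjusted p from 0.0610 to 0.160), and the adjusted p ranged from 0.00492 to 0.194 over the 22 other settings. The call with shRNA1 was lost without control replicate 1 or 2 or shRNA1 replicate 2 or 3 (adjusted p from 0.0622 to 0.0764).

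H2BC21 was lower with shRNA2 than in control cells and than with shRNA1. It encodes an H2B at 1q21 (chr1:149884460-149886682), and its entry is the long one of 2194 bases that includes 1728 bases past the stem-loop. It had 24.4, 23.2 and 22.9 FPKM in control cells, 23.1, 23.0 and 23.4 with shRNA1, and 17.6, 17.4 and 18.1 with shRNA2. The shRNA2 libraries were below all 6 others, and those of shRNA1 lay within the control range. The log2 fold change was −0.39 ± 0.030 with shRNA2 (adjusted p = 0.000499 by limma), −0.019 ± 0.030 with shRNA1 (adjusted p = 0.684) and −0.37 ± 0.030 between the hairpins (adjusted p = 0.000840). These values rest on an estimated 1276 to 2106 fragments per library, and both calls held under all 22 other settings.

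H2AC6 is an H2A gene of the chromosome 6 cluster, second in level among the H2A genes. It had 41.8, 36.2 and 39.3 FPKM in control cells, 37.7, 39.7 and 39.7 with shRNA1, and 33.2, 32.7 and 35.3 with shRNA2. The 3 shRNA2 libraries were the lowest of the 9. The log2 fold change was −0.21 ± 0.055 with shRNA2 (adjusted p = 0.0306 by limma) and 0.00066 ± 0.055 with shRNA1 (adjusted p = 1.00). The difference between the hairpins, −0.21 ± 0.055, did not pass (adjusted p = 0.0704), but did without control replicate 2 (adjusted p = 0.0481) or with the trend in transcript length removed (−0.20, adjusted p = 0.0448). Its GENCODE model extends 1114 bases past the stem-loop, unlike the deposited entry, which ends 6 bases after it. The call with shRNA2 was lost without control replicate 1 or 3 or shRNA2 replicate 1 or 2 (adjusted p from 0.0639 to 0.0809).

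H4C8 is the second H4 gene in level. It had 12.6, 15.3 and 13.4 FPKM in control cells, 15.1, 16.3 and 16.6 with shRNA1, and 13.6, 10.6 and 11.3 with shRNA2. Neither hairpin differed from control by the test (0.21 ± 0.097, adjusted p = 0.168, and −0.20 ± 0.097, adjusted p = 0.165). Between the hairpins the log2 fold change was −0.41 ± 0.097 (adjusted p = 0.0480), and the libraries did not overlap. An estimated 80.2 to 152 fragments stand behind each value, and the call held under 7 of the 22 other settings. Without shRNA2 replicate 1, H4C8 was also called lower with shRNA2 than in control cells (−0.30, adjusted p = 0.0453). Of the single libraries, leaving out shRNA2 replicate 1 kept the call between the hairpins, and leaving out any other gave adjusted p from 0.0508 to 0.145.

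The other 2 calls were small or near the threshold. H2AC11, an H2A gene at 6p22, had 6.06, 5.43 and 4.83 FPKM in control cells, 8.90, 6.76 and 6.77 with shRNA1, and 5.92, 5.72 and 6.30 with shRNA2. The shRNA1 libraries were above control (0.39 ± 0.11, adjusted p = 0.0420), with replicate 1 the highest. H2BC6, an H2B gene at 6p22, had 13.1, 13.1 and 14.1 FPKM in control cells, 13.5, 13.5 and 13.8 with shRNA1, and 14.2, 14.8 and 15.1 with shRNA2. Its rise with shRNA2 was 0.12 ± 0.036 (adjusted p = 0.0432). H2AC11 passed under 9 and H2BC6 under 11 of the 22 other settings. Without shRNA1 replicate 1 the change of H2AC11 was 0.27 (adjusted p = 0.0776), and with the trend in transcript length removed that of H2BC6 was 0.0061 (adjusted p = 0.923).

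H1-2 and H2BC12, which carry most of the signal, did not pass the test in any comparison with all 9 libraries. H1-2 had 287, 291 and 294 FPKM with shRNA1 and 283, 277 and 296 with shRNA2, all but 2 of them above the control libraries, which lay between 264 and 285 FPKM. The log2 fold change in knockdown was 0.065 ± 0.033 (adjusted p = 0.199 by limma), so the standard error allows changes of a few percent. H2BC12 had 299, 289 and 299 FPKM with shRNA1 and 307, 282 and 315 with shRNA2, against 271 to 287 FPKM in control cells. Its change was 0.096 ± 0.039 (adjusted p = 0.113). Without shRNA2 replicate 2, H2BC12 was called higher in knockdown (0.11, adjusted p = 0.0477 by limma) and with shRNA2 (0.15, adjusted p = 0.0150). H2BC5 had 24.6 to 27.2 FPKM in control cells and 24.6 to 28.1 in knockdown cells, and its change was −0.0031 ± 0.056 (adjusted p = 0.975).

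H3C10, the leading H3 gene, had 10.6, 10.7 and 10.8 FPKM in control cells, 12.3, 11.7 and 11.5 with shRNA1, and 7.54, 9.55 and 10.7 with shRNA2. All shRNA1 libraries were above all shRNA2 libraries. The difference between the hairpins was −0.33 ± 0.10 with an adjusted p of 0.104 by limma (−0.43, adjusted p = 0.0407, without shRNA2 replicate 3, where shRNA2 was also called lower than control at −0.30, adjusted p = 0.0499), and that in knockdown was −0.037 ± 0.13 (adjusted p = 0.863). H3C2 had 3.81, 2.76 and 3.01 FPKM in control cells, 1.58, 3.23 and 2.79 with shRNA1, and 3.51, 3.12 and 3.21 with shRNA2 (knockdown −0.12 ± 0.17, adjusted p = 0.662). H1-4, far below H1-2, had 0.711 to 1.79 FPKM over the 9 libraries (knockdown 0.028 ± 0.17, adjusted p = 0.925).

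For near-identical gene pairs at 1q21 the assignment of reads changed between libraries. H2AC18, H2AC19, H3C14 and H3C15 are each listed at the loci of both members of their pair, with nearly equal FPKM. Their values are sums over both loci. H2AC19 had 37.6 FPKM in control replicate 1 and 0.22 to 0.31 FPKM in the other 8 libraries, whereas H2AC18 had 100.4 FPKM in that library and 128 to 156 FPKM in the others. The sum of both was 138, 129 and 141 FPKM in control cells, 154, 147 and 157 with shRNA1, and 137, 128 and 151 with shRNA2. On the sum, control replicate 1 does not stand apart. H3C14 held nearly all of the signal of its pair with H3C15 in 4 libraries (control 1, shRNA1 1 and 3, shRNA2 1) and H3C15 in the other 5. The pair summed to 3.97, 3.57 and 4.79 FPKM in control cells, 4.98, 4.63 and 5.39 with shRNA1, and 4.73, 4.71 and 5.33 with shRNA2. Fold changes of the 4 genes taken singly, including 0.25 ± 0.11 for H2AC18 in knockdown (adjusted p = 0.132), therefore depend on this assignment. H4C11 and H4C12 also followed each other closely, at 2.94 to 4.54 and 2.97 to 4.72 FPKM. No such jump between libraries was seen for this pair.

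**Figure D4:**
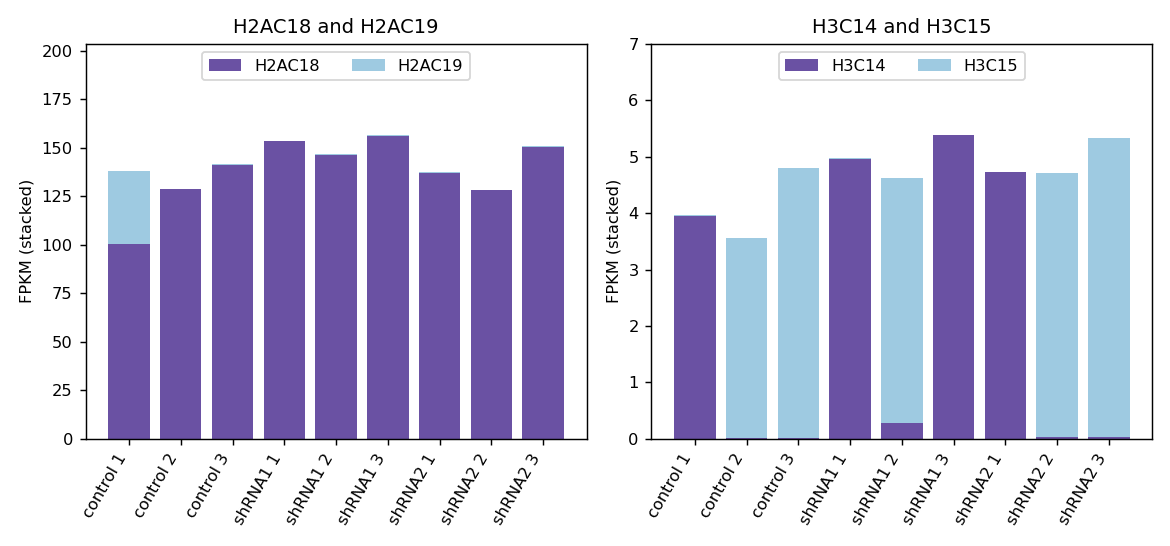
Stacked FPKM of 2 near-identical gene pairs in each library, H2AC18 with H2AC19 and H3C14 with H3C15. The assignment to the members of a pair jumps between libraries, with 37.6 FPKM on H2AC19 in control replicate 1 alone, while the stacked height stays between 128 and 157 FPKM for the first pair and between 3.57 and 5.39 FPKM for the second.

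Several other measures moved with the knockdown and are given beside these results; their part in them was not tested. Across the 12360 tested genes with a transcript length, Spearman's rho between length and log2 fold change was −0.43 in knockdown, −0.44 with shRNA1 and −0.36 with shRNA2, where all genes share the same libraries and are not independent. The histone genes are short, with a median of 496 bases against 2629 bases over all genes. For most histone genes the length is the span of the deposited entry, and for other genes that of GENCODE transcripts. For H2BC12 the coding model of 381 bases was used, although its main entry spans far more. The 1571 tested genes under 1000 bases had a median log2 fold change of 0.11 in knockdown, of which 19.1% were called higher, against 0.0049 and 2 of 37 for the histone genes. With the trend in length removed, the histone median was −0.11 in knockdown, −0.055 with shRNA1 and −0.14 with shRNA2, H2AC25 was the 1 gene called in knockdown, and H4C15 was not called (adjusted p = 0.168).

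Other RNAs without poly(A) tails were listed for comparison. Of 28 tested RNAs on that list of 46, 12 were lower in knockdown and none higher, beside 7.09% lower and 13.5% higher over all genes tested. The counts were also 12 and 0 at an unadjusted p under 0.05. The 12 are the 18S, 28S and 45S ribosomal RNA genes, which are copies with shared reads. The other 16 were called in neither direction, and the difference between this list and the histone genes was not tested. RNA18SN3, an 18S ribosomal RNA gene and the largest fall of the list, had 283, 290 and 298 FPKM in control cells, 67.7, 59.0 and 80.5 with shRNA1, and 102, 80.7 and 84.4 with shRNA2. Its log2 fold change was −1.88 ± 0.15 (adjusted p = 0.000490 by limma). RN7SK, a small nuclear RNA that regulates transcription elongation and was chosen after its values were seen, had 7.59 to 11.9 FPKM in control cells and 6.20 to 12.5 FPKM in knockdown cells, which overlapped. RN7SL2, the RNA of the signal recognition particle, likewise chosen, had 18.8 to 22.1 FPKM in control cells, 137, 99.8 and 26.2 with shRNA1, and 15.8, 249 and 18.1 with shRNA2. The 3 high libraries are shRNA1 replicates 1 and 2 and shRNA2 replicate 2, and the lowest H4C15 and H2AX values of the knockdown libraries are in shRNA2 replicate 2. In shRNA1 replicates 1 and 2, H4C15 had 61.1 and 64.9 FPKM and H2AX 103 and 99.5 FPKM, all above the control libraries.

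**Figure D5:**
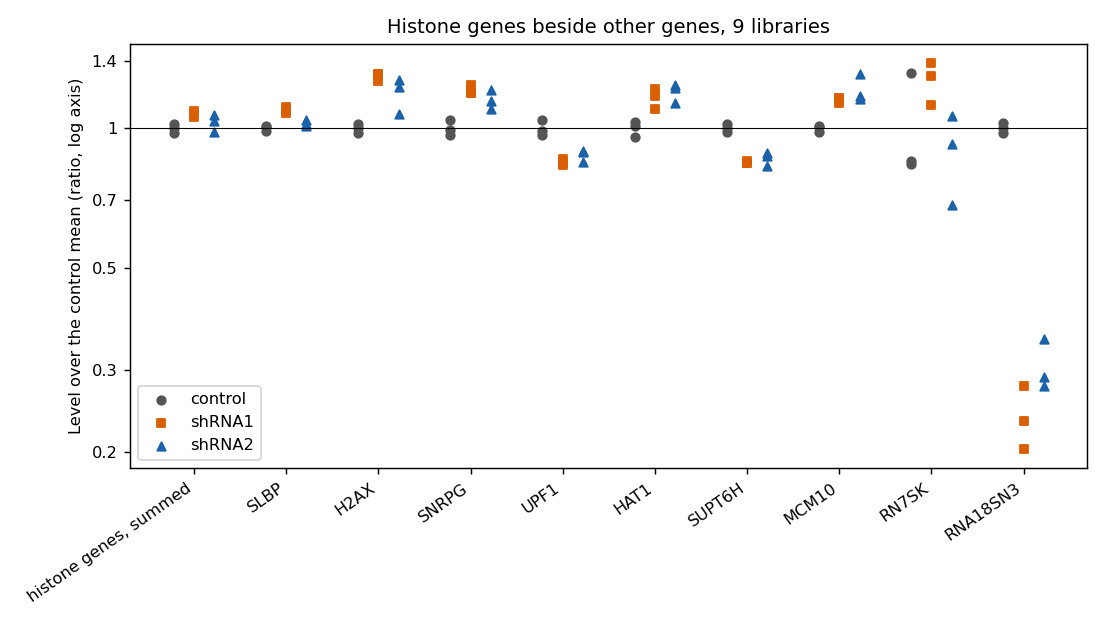
Level in each library over the control mean, on a log axis, for the summed histone genes and 9 other genes, with circles for control, squares for shRNA1 and triangles for shRNA2. The histone sum lies between 0.976 and 1.09 in all libraries, H2AX reaches 1.31, and RNA18SN3 falls to between 0.203 and 0.351.

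The factors that make histone mRNA were a mixed group. Of 23 genes for histone transcription and 3′ end processing, all tested, 6 were higher and 2 lower in knockdown, with a median log2 fold change of 0.065. For this list and the 3 lists that follow, the share over all genes tested is 13.5% higher and 7.09% lower. SNRPG, a protein of the Sm ring of spliceosomal and U7 particles, rose from 72.0 to 77.6 FPKM in control cells to 88.7 to 92.3 with shRNA1 and 81.8 to 90.2 with shRNA2 (0.24 ± 0.043, adjusted p = 0.00803 by limma). UPF1, a helicase that takes part in the decay of histone mRNA at the end of S phase, fell from 21.6 to 23.3 FPKM in control cells to 18.6 to 19.1 with shRNA1 and 18.9 to 19.9 with shRNA2 (−0.21 ± 0.034, adjusted p = 0.00571). SLBP, named here for its role after its values were seen, had 47.1 to 48.3 FPKM in control cells, 51.6 to 53.2 with shRNA1 and 48.4 to 49.7 with shRNA2 (knockdown 0.082 ± 0.035, adjusted p = 0.136; shRNA1 0.13 ± 0.025, adjusted p = 0.0137).

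Of 12 replacement histone genes, 3 were higher (H2AX, H2AZ1 and MACROH2A1) and none lower (5 and 0 at an unadjusted p under 0.05). H2AX, the variant that is phosphorylated at DNA breaks, had 80.1, 76.7 and 78.6 FPKM in control cells, 103, 99.5 and 103 with shRNA1, and 99.8, 84.1 and 96.4 with shRNA2, which limma gave as 0.31 ± 0.061 (adjusted p = 0.0113). Of 27 S phase genes, 11 were higher and none lower (15 and 0 at an unadjusted p under 0.05), with a median of 0.10. With shRNA2 alone 13 were higher and 2 lower (15.3% and 11.4% over all genes), and with shRNA1 10 were higher and none lower (11.6% and 7.19% over all genes; 16 and 0 at an unadjusted p under 0.05). The 2 that were lower with shRNA2, both chosen after their values were seen, are MCM3, a subunit of the replicative helicase (−0.21 ± 0.023, adjusted p = 0.00131 by limma), and POLA1, the catalytic subunit of DNA polymerase alpha (−0.12 ± 0.037, adjusted p = 0.0477). MCM10, a replication initiation factor, had 14.95 to 15.4 FPKM in control cells and 17.3 to 19.96 in knockdown cells (0.23 ± 0.043, adjusted p = 0.00923). The difference between these lists and the histone genes was not tested.

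Of 23 histone chaperones, 8 were higher and 4 lower in knockdown, with a median of 0.041. HAT1, which acetylates new histone H4, rose from 42.1 to 45.4 FPKM in control cells to 48.4 to 54.6 in knockdown cells (0.24 ± 0.045, adjusted p = 0.00960 by limma). SUPT6H, a chaperone of transcribed chromatin, fell from 43.9 to 45.7 FPKM to 37.1 to 39.7 (−0.22 ± 0.029, adjusted p = 0.00265). Both genes had knockdown libraries that did not overlap the control libraries.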

How the data were processed

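Total RNA of 9 DU145 libraries was sequenced as stranded mRNA libraries. Per the labels and methods STAR was used by the authors for mapping and Cufflinks for FPKM. The labels name hg38, as the loci do, while the methods name mm10. The deposited FPKM are given with confidence bounds for 83497 RefSeq entries. No tool versions, counting options or read counts were used here. Of 73240 accessions, 72639 were matched to GRCh38.p14 genes, and FPKM were summed by gene. The 42 genes with an entry not marked usable were left out. Some markers of the cell line are not reported here.

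Knockdown was compared with control by limma 3.58.1 (R 4.3.3) on log2(FPKM + 1), and each hairpin with control and with the other in a model of 3 groups, after tests on simulated data. Fragments were estimated from the bounds and cover counting error only. Depth beyond this and 3 libraries per group limit the precision. Members and lists were chosen with earlier results of these data known. By rule, test values are given for genes called in any comparison, the 2 most abundant of each type, *FZD6*, and the largest called rise and fall of each list. SLBP, MCM3 and POLA1 were added after their values were seen. Replicate numbers were not taken to pair the libraries in the main fits. Correlations of same-numbered libraries were −0.071 to 0.111, within the −0.123 to 0.184 of differently numbered ones, which does not exclude a weak pairing. Alternatives were other pseudocounts (0.1, 0.01), filters (none, 5 FPKM), scalings, entries, a replicate block, length-trend removal (lowess, span 0.3) and leaving out each library; summing the near-identical pairs and the block with the trend removed were chosen after seeing the data. Tables and plots were made in Python 3.11.15 (matplotlib 3.10.9, numpy 2.4.6, pandas 2.3.3).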

Additional observations from a re-analysis of the deposited data

Results flagged for a closer look

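Among 28 measures of the knockdown libraries (named genes and summed levels), 4 had a library far from the other 5 by Dixon's test. Chance gives about 1.4 for independent measures of libraries from a single group. Here the sums contain named genes and the libraries pool both hairpins, so an excess over chance cannot be judged. H2AC11 was at 8.90 FPKM in shRNA1 replicate 1, with the next library at 6.77. H3C2 was at 1.58 FPKM in the same library, with the next at 2.79. H2AX was at 84.1 FPKM in shRNA2 replicate 2, with the next at 96.4. MCM10 was at 19.96 FPKM in shRNA2 replicate 2, with the next at 17.9.

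The hairpins differed by limma in 3 of the genes that were given test values by rule. On the log2 scale, shRNA2 minus shRNA1 was −0.37 for H2BC21 (adjusted p = 0.000840), −0.41 for H4C8 (adjusted p = 0.0480) and −0.25 for the targeted gene *FZD6* (adjusted p = 0.0274). Among the histone genes, the H2BC21 libraries with shRNA2 were below all 6 others, and for H4C8 the libraries of the hairpins did not overlap. MCM3, named after its values were seen, is outside this count. It had 78.1 to 80.2 FPKM with shRNA1 and 63.6 to 64.4 with shRNA2.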

How the results depend on the processing

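The calls for H2BC21, and that of H2AC25 in knockdown and with shRNA2, passed under all 22 alternatives. Near-identical pairs summed as 1 feature left all member calls in place (2, 3, 4 and 2 in the 4 comparisons). In knockdown 1 histone gene was called higher with a pseudocount of 0.01, with no filter, under median centring, quantile normalization and the replicate block, and with the length trend removed with or without the block. With shRNA1 it was 1 with the trend removed, with or without the block, and with shRNA2 1 with no filter, median centring, or the trend removed, with or without the block. Between the hairpins 1 was lower under pseudocounts of 0.1 and 0.01, no filter, centring and quantile normalization. With the trend removed, 1541 genes of all tested were called in knockdown and 1528 with shRNA1, and with the replicate block as well 1122 and 1332. The replicate block alone ended the calls of H4C15 in knockdown (adjusted p = 0.0529) and H4C8 between the hairpins (adjusted p = 0.0991) by limma, added H2AC20 with shRNA1 and between the hairpins, and moved the counts over all genes to 2376, 2525, 3556 and 801, from 2575, 2356, 3334 and 838.

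The median log2 fold change of the histone genes in knockdown was 0.063 with a filter of 5 FPKM, and −0.11 with the trend removed, with or without the block. With shRNA1 it was 0.018 without a filter, 0.0088 under quantile normalization and −0.055 with the trend removed, with or without the block. With shRNA2 it was 0.054 with the filter of 5 FPKM and −0.14 with the trend removed, with or without the block, and between the hairpins −0.055 without a filter. Quantile normalization gave summed levels in knockdown over control of 1.01 for all genes, 0.984 for H1 and 1.00 for H2B. With the trend removed, with or without the block, knockdown values were −0.050 for H2BC6, −0.11 for H4C8, −0.051 for H1-2, −0.087 for H1-4 and −0.018 for H2BC12. Under quantile normalization they were −0.0093 for H4C8, −0.023 for H1-2 and −0.11 for H1-4, and centring gave −0.00030 for H4C8; none of these passed. The cause was not tested.

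Leaving out each library in turn gave 997 to 3252 genes called over all genes in knockdown, 917 to 3534 with shRNA1, 2094 to 4193 with shRNA2 and 333 to 1171 between the hairpins. Histone genes higher were 1 to 3 in knockdown, 0 to 3 with shRNA1 and 1 to 4 with shRNA2, and histone genes lower were 1 to 3 with shRNA2 and 1 to 2 between the hairpins. The 0 with shRNA1 arose without shRNA1 replicate 2 or 3, where limma left 7 and 3 histone genes at an unadjusted p under 0.05. Histone medians were −0.021 to 0.048 in knockdown, −0.080 to 0.029 with shRNA2 and −0.13 to −0.061 between the hairpins. Knockdown values were −0.054 to 0.079 for H4C8, −0.082 to 0.13 for H1-4, −0.049 to 0.020 for H2BC5 and −0.080 to 0.047 for H3C10. Genes with a mean under 1 FPKM rest on few fragments, and differences among them were not detectable at this depth.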
